A study of Mus musculus with 2 samples.

Results

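The metallothioneins Mt1, Mt2 and Mt3 were followed across the brain cell classes of mice that carried a glioblastoma graft. They are 3 of the 32285 genes counted in single-cell RNA sequencing of 2 libraries, found by their gene symbols. They were chosen for their levels across classes and libraries, so those levels and their ratios are given as a description, without a test. The cKO library came from a host of genotype Cx3cr1 CreER/+ Plxnb2fl/fl and the control library from a host of genotype Cx3cr1 CreER/+ Plxnb2 fl/+, which is a heterozygote although its title calls it WT. Both hosts thus carry 1 Cx3cr1 allele replaced by a tamoxifen-inducible Cre, which is active in microglia and other Cx3cr1-expressing myeloid cells. Both were C57BL/6 mice grafted in the brain with KR158, a mouse glioblastoma cell line. Both received 100 mg/kg tamoxifen every other day, starting 3 days before the graft and ending 8 weeks after it, and tissue was taken within about 1 mm of the injection site. The labels used here state neither host age nor the number of animals behind each library. With 1 library per genotype, genotype, animal and library cannot be told apart, and all intervals are 95% intervals that cover counting error only.

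Metallothioneins are small, cysteine-rich proteins that bind zinc and copper and take up reactive oxygen species. Mt1 and Mt2 are made in many tissues and are induced by metals through the zinc-sensing transcription factor MTF1, by glucocorticoids and by inflammatory cytokines. Mt3, also known as growth inhibitory factor, is made mainly in the nervous system and responds little to metals, and Mt4 is known from stratified epithelium.

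The 4 genes stand in a row on the plus strand of chromosome 8 of build mm10, each with 3 exons in GENCODE vM21. Mt4 lies at chr8:94137197-94139031, Mt3 at chr8:94152607-94154146, Mt2 at chr8:94172664-94173568 and Mt1 at chr8:94179082-94180327. They span 43131 bases, no other gene lies wholly within the gaps between them, and only 5513 bases separate Mt2 from Mt1. Mt2 overlaps Gm45774, an antisense gene on the minus strand that reaches into the gap between Mt3 and Mt2, and no source used here states whether counting used strand, so reads of this pair may not be separated. Of the 31-base words of their exons, Mt1 and Mt3 shared none with another annotated gene, Mt2 shared 3 of 573 with Pip5k1a, and no member shared any with another member. The files list Mt4 with 5 UMIs in all cKO barcodes and 1 UMI in all control barcodes. The 250 bases before each RefSeq start site (build GRCm38.p6, plus strand) are shown because metal induction of Mt1 and Mt2 runs through short promoter elements. Which start site these cells use was not examined, so such elements may lie outside the stretch shown. Capitals mark the metal response element core, searched as TGCACNC or TGCGCNC on both strands.

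Mt1, chr8:94178839-94179088: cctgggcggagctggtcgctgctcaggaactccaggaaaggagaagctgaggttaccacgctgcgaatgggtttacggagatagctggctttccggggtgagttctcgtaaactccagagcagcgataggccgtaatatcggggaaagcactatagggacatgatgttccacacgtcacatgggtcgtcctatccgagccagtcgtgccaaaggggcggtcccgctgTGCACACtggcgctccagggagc

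Mt2, chr8:94172368-94172617: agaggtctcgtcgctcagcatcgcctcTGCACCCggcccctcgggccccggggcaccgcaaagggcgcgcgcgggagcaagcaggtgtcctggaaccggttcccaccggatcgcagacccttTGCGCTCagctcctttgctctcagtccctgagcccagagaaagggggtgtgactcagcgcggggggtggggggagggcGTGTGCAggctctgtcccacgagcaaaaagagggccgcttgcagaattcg

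Mt3, chr8:94152357-94152606: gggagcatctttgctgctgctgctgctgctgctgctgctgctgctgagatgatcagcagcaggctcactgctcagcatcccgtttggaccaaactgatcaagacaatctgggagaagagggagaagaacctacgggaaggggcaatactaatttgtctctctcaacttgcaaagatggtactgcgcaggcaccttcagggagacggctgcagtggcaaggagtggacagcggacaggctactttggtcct

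Mt2 holds 3 such cores in the sequence shown and Mt1 holds 1, while the Mt3 sequence holds none. In the full window, which adds the first 50 bases after the start, Mt2 has 4 cores, Mt1 has 3 and Mt3 has 1. Of the Mt1 cores, 2 lie after the RefSeq start, from bases 3 and 21. Of 32851 RefSeq windows of that length, 25.7% hold at least 1 core, 1.97% hold at least 3 and 0.517% hold at least 4. The antioxidant response element core, searched as TGACNNNGC on both strands, was found once, 79 bases before the Mt2 start, and 12.4% of the windows hold it. These matches describe letters only.

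After filtering, 5206 cKO cells with a median of 5917 UMIs and 7645 control cells with a median of 4626 UMIs remained, a UMI being 1 tagged RNA molecule. The 2 libraries shared 8 barcodes. Cells were grouped into classes by marker genes, with the metallothioneins left out of the clustering. In microglia, Plxnb2, the gene of the semaphorin receptor Plexin-B2, stood at 38.7 CPM in cKO and 200 CPM in control, a log2 ratio of -2.37 (-2.62 to -2.12), although a 3′ tag can lie outside the deleted part. CPM are UMIs per 1000000 UMIs of the class in that library. They come from 3′ tags and are not scaled by transcript length, so levels are set side by side between classes and the mix of members is given as shares of tags.

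Ependymal cells, the ciliated cells that line the ventricles, and astrocytes carried the metallothioneins at higher levels than every other class. Mt1 stood at 10169.5 CPM in cKO and 9042 CPM in control ependymal cells. In astrocytes it stood at 10057 CPM in cKO and 8707 CPM in control, so that the 2 classes lay within 1.04-fold of each other. Mt1 was the gene of rank 6 in cKO astrocytes and of rank 7 in control astrocytes among all genes with a UMI.

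Mt3 was higher in ependymal cells than in astrocytes, by 1.74-fold in cKO and 1.68-fold in control. Ependymal cells had 13037 CPM in cKO and 9517 CPM in control, and Mt3 was the gene of rank 3 in cKO and of rank 5 in control. Astrocytes had 7494 CPM in cKO and 5679 CPM in control. The next class below them lay 19.3-fold lower in cKO, in pericytes or smooth muscle cells, and 2.11-fold lower in control, in choroid plexus cells, which cKO almost lacked.

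Mt2 followed the same order, with 1791 CPM in cKO and 1515 CPM in control ependymal cells and with 1332 CPM in cKO and 1369 CPM in control astrocytes. The next class below astrocytes lay 8.68-fold lower for Mt1 in cKO and 6.94-fold lower in control. For Mt2 that step was 15.3-fold in cKO and 4.69-fold in control, the class below being endothelial cells in both libraries.

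**Figure D1:**
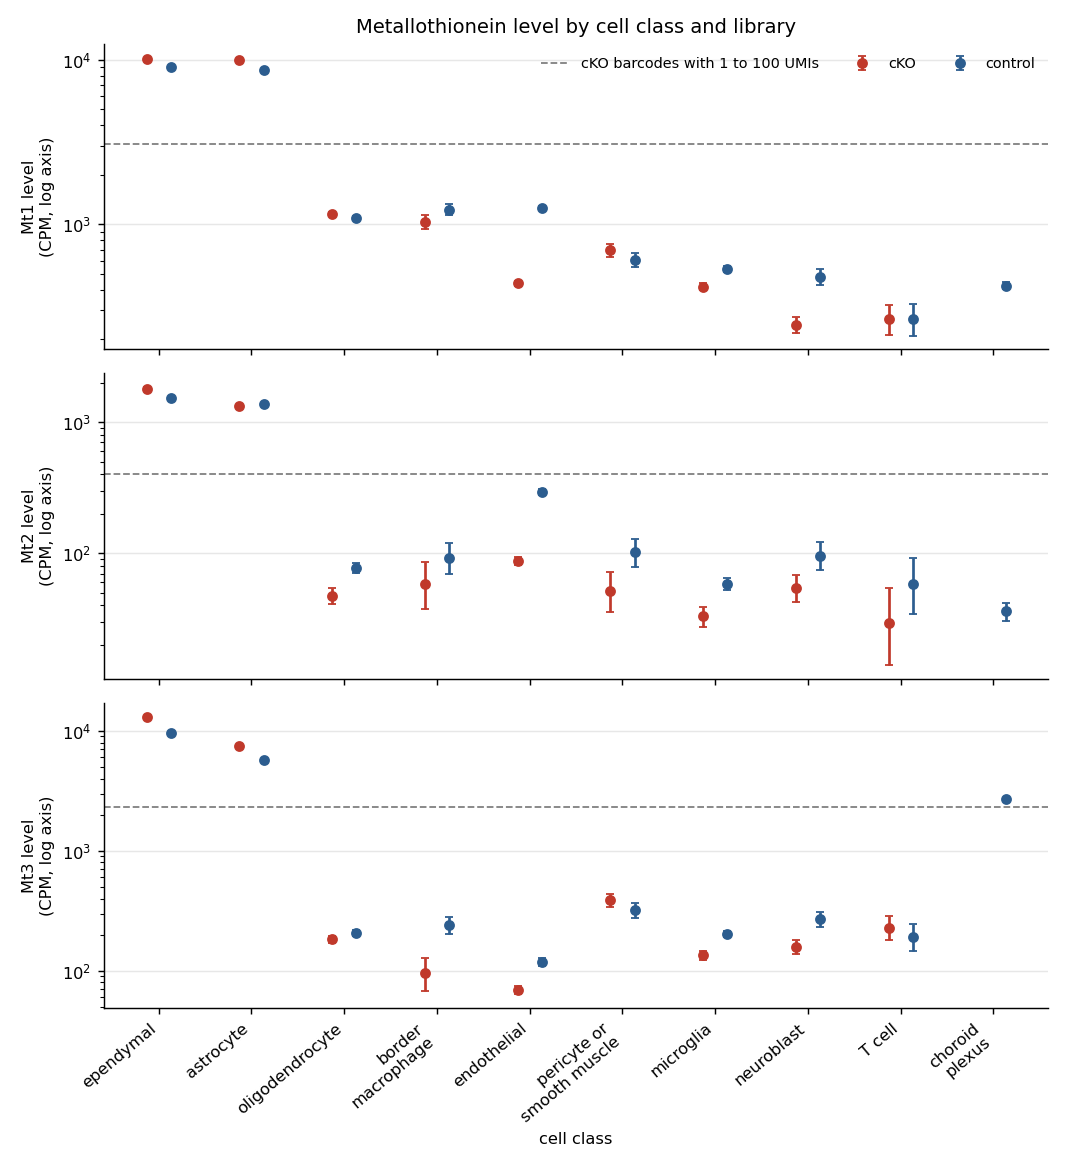
Levels of Mt1, Mt2 and Mt3 in CPM (log axis) by cell class, cKO to the left of control, with exact Poisson 95% intervals and a dashed line at the level in cKO barcodes with 1 to 100 UMIs. Ependymal cells and astrocytes lie above the line for all 3 genes, and in control choroid plexus only Mt3 does (2694 CPM beside 2305 CPM). The line comes from the cKO library alone, and free RNA of the control library was not measured.

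The lower classes were ordered differently for each member. Mt1 ranked 3 in cKO in oligodendrocytes, the myelin-forming cells, which had 1159 CPM in cKO and 1099 CPM in control. Border macrophages, which sit at the meninges and vessels, had 1031 CPM in cKO and 1229.7 CPM in control, and their interval overlapped that of oligodendrocytes in cKO. Endothelial cells ranked 6 in cKO at 438 CPM, with an interval that overlapped that of microglia, and ranked 3 in control at 1255 CPM, overlapping border macrophages.

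Mt3 was lowest in endothelial cells in both libraries, at 69.0 CPM in cKO and 119 CPM in control. Choroid plexus cells, which secrete cerebrospinal fluid, were captured as 358 cells in control but only 4 in cKO and are described for control alone. There Mt3 reached 2694 CPM beside 424 CPM of Mt1 and 36.1 CPM of Mt2, and 95.3% of the cells kept an Mt3 UMI after thinning every cell to 1000 UMIs.

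Metallothionein tags were also present in barcodes far too shallow to pass as cells, taken here as free RNA. In cKO barcodes with 1 to 100 UMIs Mt1 stood at 3086 CPM, Mt2 at 399 CPM and Mt3 at 2305 CPM. Those barcodes split their metallothionein tags as 53.3% Mt1, 6.90% Mt2 and 39.8% Mt3, and cKO astrocytes as 53.3%, 7.05% and 39.7%. The deposited control matrix starts at 500 UMIs per barcode, so its free RNA was not measured.

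T cells, taken as the background class, had 265 CPM of Mt1 in cKO and 265 CPM in control, and 229 CPM of Mt3 in cKO and 191 CPM in control. Their cKO mix was 50.6% Mt1, 5.62% Mt2 and 43.8% Mt3. Cells with at least 1 Mt1 UMI after thinning made up 19.2% of T cells in cKO and 22.97% in control, from median depths of 4160.0 UMIs in cKO and 3921.5 UMIs in control. Shares at or under these levels are read as background. T cells were an uneven reference, as their summed astrocyte markers stood at 982 CPM in cKO and 510 CPM in control.

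Several classes departed from the astrocyte mix. Mt1 made up 83.5% of the tags in cKO and 79.5% in control oligodendrocytes, and 87.1% in cKO and 78.7% in control border macrophages. Mt2 made up 14.7% in cKO and 17.5% in control endothelial cells, beside 7.05% in cKO and 8.69% in control astrocytes. In control choroid plexus Mt3 made up 85.4%. In ependymal cells Mt3 made up 52.2% in cKO and 47.4% in control, beside 39.7% in cKO and 36.0% in control astrocytes. Neuroblasts lay closer to the astrocyte mix, with 53.5% Mt1, 11.9% Mt2 and 34.6% Mt3 in cKO.

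**Figure D2:**
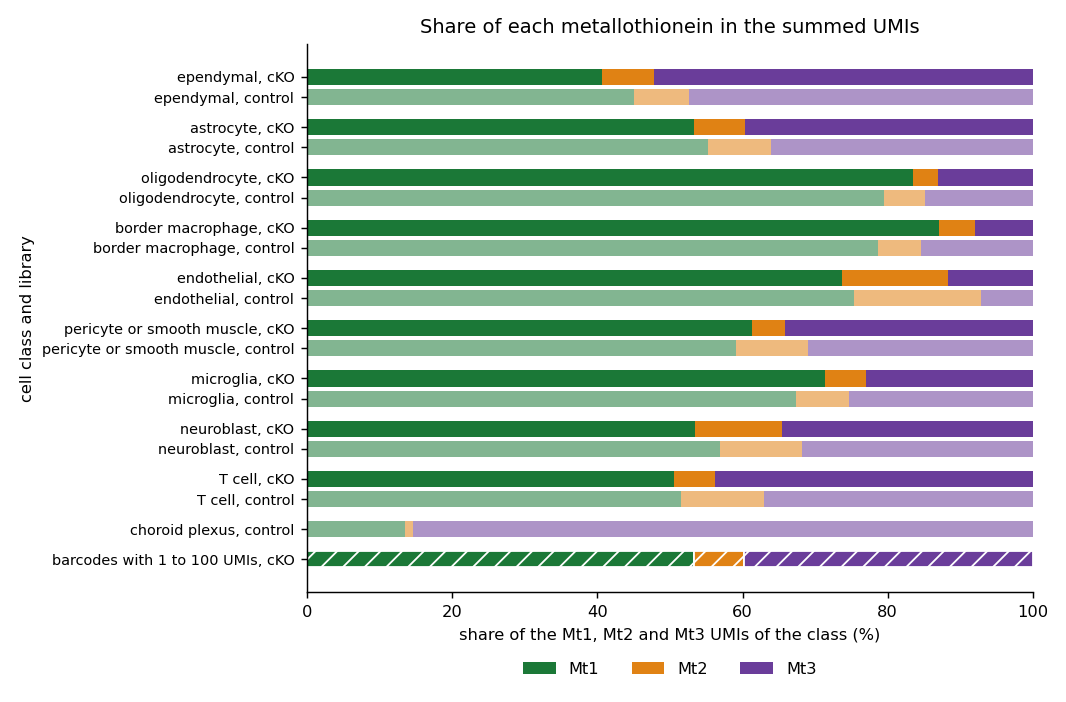
Share of Mt1, Mt2 and Mt3 tags (%) in each class, cKO above control, with cKO barcodes of 1 to 100 UMIs hatched at the bottom. The hatched bar (53.3% Mt1, 6.90% Mt2, 39.8% Mt3) lies close to the cKO astrocyte bar (53.3%, 7.05%, 39.7%), oligodendrocytes and border macrophages are mostly Mt1, and control choroid plexus is 85.4% Mt3.

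Levels were also set beside the 10 astrocyte markers, all of which were above 0 in every class. In endothelial cells the summed astrocyte markers stood at 381 CPM in cKO and 506 CPM in control. At the astrocytes' own ratio of gene to markers, measured endothelial Mt1 was 2.41 times that level in cKO and 5.25 times in control, and Mt2 3.62 times in cKO and 7.76 times in control. Endothelial Mt3 was 0.509 times that level in cKO and 0.765 times in control. In oligodendrocytes Mt1 was 4.62 times that level in cKO and 3.56 times in control. In neuroblasts Mt1 was 0.952 times that level in cKO and 0.929 times in control, and Mt3 0.826 times in cKO and 0.797 times in control, while Mt2 was 1.59 times that level in cKO and 1.18 times in control. The ratio of gene to markers in cKO barcodes with 1 to 100 UMIs gave lower multiples in cKO. With it, endothelial Mt1 was 1.76 times and Mt2 2.70 times, oligodendrocyte Mt1 3.37 times and neuroblast Mt2 1.19 times the level.

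The cKO and control libraries were compared in 7 classes with at least 100 cells in each. A call of higher or lower needed a difference of 1.5-fold and an interval that leaves out equality. Of the 21 pairs of member and class, 9 were called lower in cKO, none was called higher and 12 were neither, where between 0.823% and 3.35% of all genes tested in a class were called lower. Mt2 was lower in 5 classes, Mt1 in 2 and Mt3 in 2. Not all of these levels lay above those of T cells, the background class. Endothelial Mt3 lay below the T-cell level in both libraries, and neuroblast Mt1 and Mt3 did in cKO. T-cell Mt2 stood at 29.4 CPM (14.1 to 54.1) in cKO and 58.1 CPM (34.5 to 91.9) in control. Its log2 ratio was -0.98 (-2.26 to 0.21), from 10 UMIs in cKO and 18 in control. T-cell Mt2 CPM intervals overlapped those of microglia, oligodendrocytes, neuroblasts and pericytes or smooth muscle cells in both libraries, but not those of endothelial cells. The lowest ratios were those of Mt1 and Mt2 in endothelial cells, the inner lining of vessels.

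**Figure D3:**
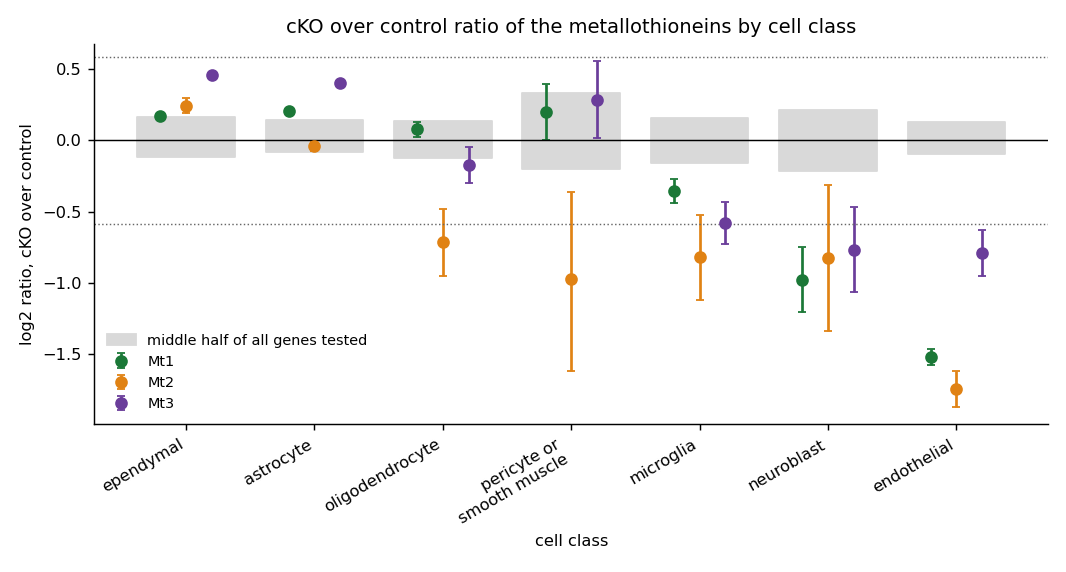
Log2 ratio of cKO over control for Mt1, Mt2 and Mt3 in 7 classes with exact 95% intervals, grey boxes for the range from the lower to the upper quartile of all genes tested, and dotted lines at 1.5-fold. Endothelial Mt1 at -1.52 and Mt2 at -1.74 lie lowest, and ependymal and astrocyte points lie within the dotted lines.

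Endothelial Mt1 stood at 438 CPM in cKO (3952 UMIs in 897 cells) and 1255 CPM in control (6612 UMIs in 686 cells), a log2 ratio of -1.52 (-1.58 to -1.46). Endothelial Mt2 stood at 87.1 CPM in cKO and 292 CPM in control, a log2 ratio of -1.74 (-1.87 to -1.62). All 3 members were called lower here, Mt3 with a log2 ratio of -0.79 (-0.95 to -0.63), where 1.31% of 6282 genes tested were called lower. Among those genes Mt1 lay at percentile 0.0478 and Mt2 at percentile 0.0159 of the ratio, and the median log2 ratio of all genes was 0.017. Mt1 and Mt2 were called lower under all 10 alternative filters, class definitions and scalings, whereas the Mt3 log2 ratio was 0.047 when cells were classed by their own marker counts. Endothelial Mt3, at 69.0 CPM in cKO and 119 CPM in control, also lay below the Mt3 of T cells, at 229 CPM and 191 CPM.

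The lower endothelial level was also seen cell by cell. Per 10000 UMIs, the median endothelial cell had 2.86 Mt1 UMIs in cKO and 9.93 in control, and the cell at the 90th percentile had 13.3 in cKO and 30.2 in control. After thinning, 33.9% (30.8 to 37.1) of endothelial cells had an Mt1 UMI in cKO and 62.7% (58.9 to 66.3) in control, against 78.5% in cKO and 92.4% in control as counted. For Mt2 the thinned share was 9.48% in cKO and 22.4% in control. Median depths before thinning were 7276 UMIs in cKO and 5968.5 UMIs in control.

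The same held in both endothelial clusters. In cluster 1, led by the transporter gene Slc38a5, Mt1 stood at 452 CPM in cKO and 1342 CPM in control, and Mt2 at 91.9 CPM in cKO and 314 CPM in control. In cluster 16, led by Gkn3 and with the arterial genes Bmx and Sema3g, Mt1 stood at 367 CPM in cKO and 802 CPM in control (log2 ratio -1.13), and Mt2 at 62.4 CPM in cKO and 173 CPM in control (-1.47). Mt3 had a log2 ratio of -0.98 in cluster 1 and -0.0066 (-0.38 to 0.38) in cluster 16. Cluster 9 held endothelial markers but stayed unnamed, as its leading genes include the pericyte gene Rgs5, and there Mt1 and Mt2 had log2 ratios of -1.75 and -1.66. Cluster 19 also held endothelial markers and stayed unnamed, with haemoglobin genes such as Hba-a1 in the lead. There the log2 ratios were smaller for Mt1, at -0.60 (-0.72 to -0.48), and Mt2, at -1.07, and Mt3 was 0.49 (0.28 to 0.71).

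Haemoglobin and other erythroid markers summed to 3717 CPM in cKO and 546 CPM in control endothelial cells. Without cells that held over 10 haemoglobin UMIs, 36 of 897 in cKO and 15 of 686 in control, the log2 ratios were -1.49 for Mt1 and -1.67 for Mt2.

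Astrocytes, which held most of the metallothionein tags, differed little between libraries. The log2 ratios were 0.21 (0.19 to 0.22) for Mt1, -0.040 (-0.075 to -0.0049) for Mt2 and 0.40 (0.38 to 0.42) for Mt3, none past 1.5-fold, where 0.712% of 6463 genes tested were called higher and 0.975% lower. Ependymal ratios were 0.17 (0.15 to 0.19) for Mt1, 0.24 (0.19 to 0.29) for Mt2 and 0.45 (0.43 to 0.47) for Mt3, where 1.99% of 7171 genes were called higher and 0.823% lower. In both classes Mt3 had the highest ratio of the members and lay at percentile 97.6 of all genes in astrocytes and 96.2 in ependymal cells.

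Astrocyte clusters differed in level. Among those with at least 50 cells of each library, cluster 5, with the leading genes Crym and Cxcl14, was highest for Mt1 at 13851 CPM in cKO and 12633 CPM in control, and cluster 4, led by Kirrel2, was lowest in cKO at 7338 CPM, with 7002 CPM in control. Cluster 14, whose leading genes include Thbs4, Myoc and Gfap, the intermediate filament gene of reactive and fibrous astrocytes, was the one of them with a call: Mt3 stood at 9956 CPM in cKO and 5703 CPM in control, a log2 ratio of 0.80 (0.75 to 0.85). It held 110 cKO and 115 control cells. In cluster 6, led by Igsf1 and with the angiotensinogen gene Agt, Mt3 stood at 6036 CPM in cKO and 4230.2 CPM in control, a log2 ratio of 0.51.

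**Figure D4:**
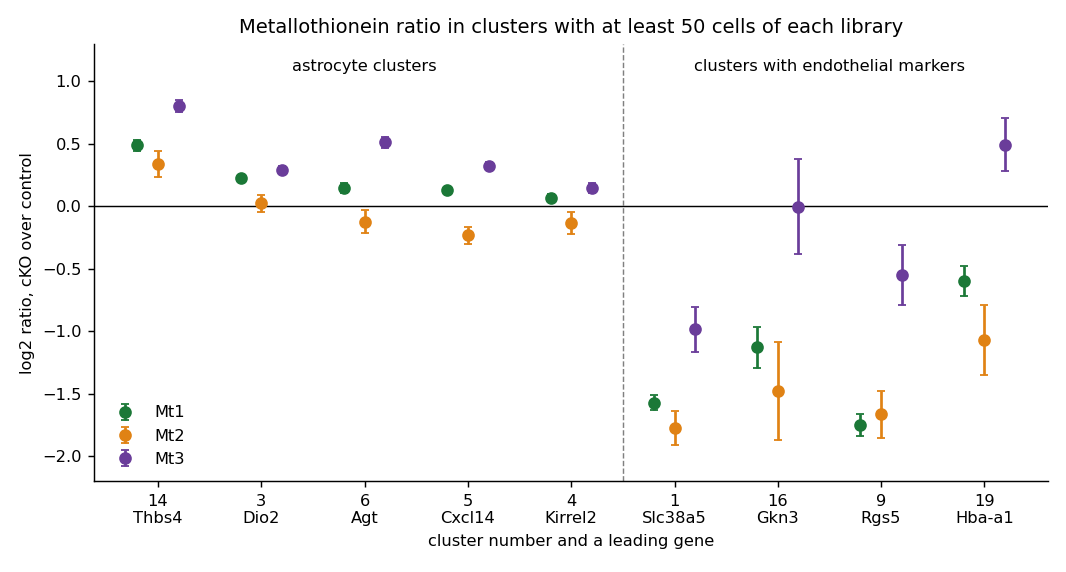
Log2 ratio of cKO over control for Mt1, Mt2 and Mt3 with exact 95% intervals in 5 astrocyte clusters and in 4 clusters with endothelial markers, each named by its number and a leading gene. Mt1 and Mt2 lie below 0 in every cluster with endothelial markers, and Mt3 lies above 0 in every astrocyte cluster shown.

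A minority of astrocytes had little Mt1. Thinned to 1000 UMIs, 217 of 1531 astrocytes (14.2%) in cKO and 318 of 2622 (12.1%) in control had 0 to 2 Mt1 UMIs. Cluster 4 held 66.4% of these cells in cKO and 45.6% in control, and 407 of all 1531 cKO and 609 of all 2622 control astrocytes. Within cluster 4, 35.4% of cKO and 23.8% of control cells had 0 to 2 Mt1 UMIs, beside 0.536% and 2.36% within cluster 5. The low-Mt1 cells had astrocyte markers as high as the other astrocytes: 21.7 thinned UMIs per cell beside 20.7 in cKO, and 19.4 beside 18.3 in control. They were shallower, with median depths of 3120 UMIs beside 5295.5 in cKO and 3203.5 beside 4505.5 in control, and the part of depth was not tested. Their Mt3 was low too, at 1.27 thinned UMIs per cell beside 8.21 in cKO and 1.94 beside 6.04 in control.

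The spread of Mt1 among astrocytes was wider in cKO. Per 10000 UMIs the cells at the 10th and 90th percentiles had 13.7 and 174 Mt1 UMIs in cKO, and 27.1 and 145 in control. Across thinned astrocytes, which share their library, Mt1 and Mt3 had a Pearson r of log counts of 0.74 in cKO (1531 cells) and 0.59 in control (2622 cells). Mt1 and Mt2 had an r of 0.39 in cKO and 0.38 in control.

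In microglia, the resident macrophages in which Cre is active, Mt2 was lower at 33.0 CPM in cKO and 58.2 CPM in control, a log2 ratio of -0.82 (-1.12 to -0.52), where 2.13% of 6372 genes tested were called lower and 3% higher. Mt1 had 418 CPM in cKO and 535 CPM in control (-0.36), and Mt3 134 CPM in cKO and 201 CPM in control (-0.58), both short of the call. Microglial Mt3 was called lower in 4 of 10 alternatives, down to -1.14 with classes from per-cell marker counts, and Mt1 in 2 of 10, down to -0.65 with the same classes. Cluster 7, led by Cxcl9 and Ccl4, held 329 of 572 cKO microglia and 274 of 1313 control microglia, the others being in cluster 2. Within cluster 2 alone the log2 ratios were -0.55 for Mt1, -1.21 for Mt2 and -0.71 for Mt3, the last then called lower. Within cluster 7 alone they were -0.30 for Mt1, -0.50 (-0.95 to -0.047) for Mt2 and -0.049 (-0.30 to 0.21) for Mt3, none of them called. Astrocyte markers summed to 735 CPM in cKO and 911 CPM in control microglia. Mt2 and Mt3 lay below the level at the astrocyte ratio. Mt2 was 0.711 times that level in cKO and 0.861 times in control, and Mt3 0.515 times in cKO and 0.717 times in control. Mt1 lay above it, at 1.19 times in cKO and 1.25 times in control.

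In oligodendrocytes Mt2 was lower, at 47.3 CPM in cKO and 77.7 CPM in control, a log2 ratio of -0.72 (-0.95 to -0.49), where 1.22% of genes tested were called lower and 0.414% higher. Mt1, their main metallothionein, had a log2 ratio of 0.077 and Mt3 of -0.17. The Mt2 call was lost with a mitochondrial limit of 5% (-0.47), with per-cell marker classes (-0.28) and in cells of the same class at most 5% mitochondrial (-0.50). The Mt3 ratio was 0.65, called higher, with per-cell marker classes and -0.63, called lower, in thinned cells, and the Mt1 ratio changed sign in 3 of 10 alternatives, to at lowest -0.051. Astrocyte markers summed to 526 CPM in cKO and 655 CPM in control oligodendrocytes. Mt2 was 1.42 times the level at the astrocyte ratio in cKO and 1.60 times in control. The part of astrocyte RNA in the Mt2 result was not tested.

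Neuroblasts had all 3 members called lower, with log2 ratios of -0.98 for Mt1, -0.83 for Mt2 and -0.77 for Mt3, where 3.35% of genes tested were called lower and 2.21% higher. Mt1 stood at 244 CPM in cKO and 479.9 CPM in control. Astrocyte markers moved in the same direction, at 537 CPM in cKO and 1095 CPM in control neuroblasts, and their part in the result was not tested. The cKO Mt1 level lay below the 265 CPM of cKO T cells, with overlapping intervals. Neuroblast Mt3 in cKO, at 158 CPM, lay below the 229 CPM of cKO T cells. In control, neuroblast Mt1 and Mt3 lay above the T-cell levels. Astrocyte markers in T cells went the other way between libraries, at 982 CPM in cKO and 510 CPM in control. Their part in this comparison was not tested. The Mt1 call was lost in thinned cells (-0.29) and with doublets kept (-0.50). The Mt2 call was lost in 5 of 10 alternatives and the Mt3 call in 3 of 10, with ratios up to -0.35 for Mt2 and -0.27 for Mt3 with doublets kept.

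Pericytes or smooth muscle cells, the contractile cells of the vessel wall, had Mt2 at 51.7 CPM in cKO (34 UMIs) and 102 CPM in control (67 UMIs), a log2 ratio of -0.98 (-1.62 to -0.36), where 2.94% of genes tested were called lower and 5.25% higher. That call was lost at a UMI floor of 2000 (-0.40), at a mitochondrial limit of 20% (-0.54) and in cells of the same class at most 5% mitochondrial (-0.74). Mt2 was 0.646 times the level at the astrocyte ratio in cKO and 1.33 times in control. For the whole class the log2 ratio of Mt1 was 0.19 and that of Mt3 0.28, neither called. The class pools cluster 17, led by Kcnj8, and cluster 21, led by Acta2. In cluster 17 Mt2 was -0.64 (-1.60 to 0.32), not called, and Mt1 was called higher at 0.67 (0.36 to 0.99). In cluster 21 Mt2 was called lower at -1.29 (-2.23 to -0.42), and Mt1 was -0.20 (-0.47 to 0.066), not called. After thinning, the top 17 pericytes or smooth muscle cells held 67.0% of the Mt1 tags of the class in cKO and 51.0% in control. This was not particular to the class. In neuroblasts the top 25 of 242 cells held 68.8% in cKO and the top 15 of 141 held 54.5% in control. In microglia the top 58 of 572 cells held 60.5% in cKO, while in oligodendrocytes the top 56 of 559 held 32.9%. Mean thinned Mt1 UMIs per cKO cell were 0.54 in pericytes or smooth muscle cells, 0.32 in neuroblasts, 0.37 in microglia and 1.25 in oligodendrocytes. With counts this sparse, the shares alone cannot show a separate group of cells.

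The unnamed cluster 18, with neuroblast markers and the cycling genes Pclaf and Rrm2 among its leading genes, had a mix of its own. Mt2 stood there at 390 CPM in cKO (99 cells) and 402 CPM in control (88 cells), and made up 38.6% of the metallothionein tags in cKO and 32.8% in control.

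Border macrophages were too few to be compared by the call rule, with 78 cKO and 136 control cells. Their Mt3 stood at 95.01 CPM in cKO (41 UMIs) and 239.8 CPM in control (148 UMIs), and astrocyte markers summed to 294 CPM in cKO and 1082 CPM in control.

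Genes with a like pattern were sought over 19 sums of class and library in 10 classes, by Pearson r of log2(CPM + 10) among 8470 genes. The sums share libraries and free RNA, and r is a description. Mt1 was closest to Mt2 (r = 0.93), followed by Mro, Nadk2, Gfap and the lipid-synthesis regulator Srebf1. Mt2 was closest to the potassium channel gene Kcnn3 (r = 0.94), then Mt1, Gstm1, Mro and Gm5089. Mt3 was closest to Clu, which encodes the secreted chaperone clusterin (r = 0.98), and to the neurotrophin receptor gene Ntrk2 (r = 0.97), then Klhdc7a and Ppargc1a. Between Mt1 and Mt3 r was 0.81.

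Of 21 listed zinc sensors and transporters, 10 could be tested in endothelial cells, and none of those was called, with a median log2 ratio of -0.071 beside 0.017 for all genes. Mtf1, which encodes the zinc sensor, had a log2 ratio of -0.44 (-0.75 to -0.13). None of the list was called in astrocytes (13 tested) or ependymal cells (10 tested), and in oligodendrocytes 1 of 7 was, the zinc exporter gene Slc30a1, at 16.1 CPM in cKO and 26.4 CPM in control (-0.72), where 1.22% of all genes tested were called lower. In pericytes or smooth muscle cells 2 of 10 were called higher, Slc39a1 (1.53) and Slc30a10 (0.84), where 5.25% of all genes tested were. In endothelial cells none of 8 copper genes tested was called, and of 7 iron genes tested Fth1, the ferritin heavy chain, was higher at 3848 CPM in cKO and 2462 CPM in control (0.64), where 1.03% of genes tested were called higher. Of 11 oxidative stress genes tested in endothelial cells none was called.

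Lists for other known inducers of metallothioneins were read against the 1.03% of all endothelial genes tested that were called higher and the 1.31% called lower. Among 10 glucocorticoid response genes tested, Sult1a1 (1.02) and Cebpd (0.61) were higher and the other 8 were not called, among them Dusp1 (-0.45). The median log2 ratio of these 10 was 0.076 beside 0.017 for all genes. Among 8 genes of the STAT3 and acute-phase response, 1 was higher, Lcn2, which encodes an iron-siderophore binding protein, at 156 CPM in cKO and 18.6 CPM in control (3.07). Of 16 dissociation stress genes tested, Ier3 was higher and Atf3 and Hspa1a were lower, with a median log2 ratio of -0.43 beside 0.017 for all genes. In ependymal cells 10 of 15 tested were higher, led by the immediate-early gene Fos (2.61), where 1.99% of all genes tested were, with a median of 0.95 beside 0.019 for all genes, and their part in the metallothionein ratios was not tested.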

How the data were processed

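Tissue was dissociated with papain, cleared of debris with Percoll and depleted of red cells, with no sort, per the labels' protocols. The deposited matrices hold UMI counts per gene and barcode, made by the authors with Cell Ranger 7.1.0 on mm10 per the submitters' processing notes. No source used here gives the annotation release or says whether intronic reads were counted. The cKO matrix holds 2377349 barcodes, unfiltered, with 63785513 UMIs. The control matrix holds 10942 barcodes of at least 500 UMIs, with 64756949 UMIs. Cells needed 1000 UMIs, 500 genes and at most 10% mitochondrial UMIs. Scrublet called 3.56% of cKO and 5.24% of control cells doublets, which were removed. Cells were clustered together with scanpy 1.11.5 (2000 variable genes without the metallothioneins, 30 components, 15 neighbours, Leiden resolution 1.0) and no integration. Of 30 clusters, 8 stayed unnamed, and no markers of KR158 cells were used. UMIs were summed per class and library. CPM carry exact Poisson intervals, shares exact Clopper-Pearson intervals and ratios exact conditional intervals, all for counting error only. Genes tested had a mean of at least 20 CPM. Ratio and thinning steps were tested on simulated data. Members, lists and markers were chosen with earlier results of these data known. Named list genes are among the 3 of the highest absolute ratio per list and class. For each member the genes of the highest r across class sums are named, and a gene that this rule names is not reported here. Of the gene identifiers, 99.6% are in GENCODE vM21. Promoters are from RefSeq.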

Additional observations from a re-analysis of the deposited data

Results flagged for a closer look

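The ratio of each member pointed in opposite directions in different classes, with intervals on opposite sides of 0, and the difference between classes was not tested. For Mt1 the log2 ratio of cKO over control was 0.21 in astrocytes and -1.52 in endothelial cells. For Mt2 it was 0.24 in ependymal cells and -1.74 in endothelial cells. For Mt3 it was 0.45 in ependymal cells and -0.79 in endothelial cells. Metallothionein tags also appeared in data outside the comparisons, in cKO barcodes with 1 to 100 UMIs, at 3086 CPM for Mt1, 399 CPM for Mt2 and 2305 CPM for Mt3.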

How the results depend on the processing

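No paired analysis was possible because each genotype has 1 library. Over 10 alternative filters, class definitions and scalings, 10 of the 21 pairs of member and class had the same call throughout and 16 kept the sign of their ratio. Endothelial ratios ranged from -1.55 to -1.36 for Mt1 and from -1.84 to -1.36 for Mt2. The endothelial Mt3 ratio changed sign, to 0.047, with classes from per-cell marker counts, and the cause was not tested. Mt1 was called higher in 1 class at a UMI floor of 2000 and in cells of the same classes at most 5% mitochondrial, and lower in 1 class with doublets kept and at a 2-fold threshold. Mt2 was called lower in 3 classes with per-cell marker classes and in cells at most 5% mitochondrial, and in 1 class at 2-fold. Mt3 was called higher in 1 class at the UMI floor, with per-cell marker classes and in cells at most 5% mitochondrial. Mt3 was called lower in 0 classes with doublets kept and at 2-fold, and in 4 classes in thinned cells. Astrocyte Mt1 was 0.25 with a mitochondrial limit of 5%, 0.23 with per-cell marker classes, in thinned cells and in cells at most 5% mitochondrial, and 0.17 with mitochondrial, ribosomal and rRNA-like genes left out of the totals. Those totals gave -0.077 for Mt2 and 0.36 for Mt3. Astrocyte Mt3 was 0.38 at the UMI floor and in thinned cells, 0.45 with the mitochondrial limit and 0.43 in cells at most 5% mitochondrial. Pericyte or smooth muscle ratios ranged from -0.27 to 0.86 for Mt1 and from -0.51 to 1.25 for Mt3, and Mt3 was 1.497 in cells at most 5% mitochondrial. Genes called in either direction made up 1.64% to 8.19% of those tested per class, and 4.1% to 7.77% with no minimum CPM. Cells at most 5% mitochondrial in the same classes, and the settings without haemoglobin-rich cells and within 1 microglia cluster, were chosen after seeing the data. Mt2 outside astrocytes and ependymal cells rests on 10 to 1536 UMIs per class and library, which limits its precision.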
